A study of Mus musculus with 38 samples.

Results

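The milk protein and lactation genes Csn1s1, Csn2, Csn1s2a, Csn3, Wap, Lalba, Btn1a1, Xdh and Mfge8 were followed through mammary tumor progression and chemotherapy in mice. They were found by their names on the arrays, where the caseins carried the older symbols Csna, Csnb, Csng and Csnk. All 9 genes were present, read by 12 of 41174 probes, among 28785 gene names in all. The cells came from hyperplasias of MMTV-PyMT;actin-GFP mice, in which the mouse mammary tumor virus promoter drives the polyoma middle T oncogene and an actin promoter drives GFP, grown in the mammary fat pads of FVB/n mice. Because the actin promoter is active in most cell types, GFP marks cells of donor origin rather than epithelium alone. GFP-positive cells were sorted from every sample, and no group lacked the transgenes.

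The progression arrays held adenomas from outgrowths of 5 weeks (n = 5) and carcinomas of 18 weeks (n = 6). They also held disseminated cells from lungs of mice with 18-week outgrowths (n = 6, lungs of several mice pooled in a sample). Lung metastases (n = 5) came from mice whose 18-week outgrowths had been removed, and were collected at respiratory distress, weeks after that surgery. Time since transplant thus differed between adenomas and the other groups, and was longest for metastases. The chemotherapy arrays held untreated tumors (n = 6), residual tumors at day 10 after 1 dose of TAC, which is docetaxel, doxorubicin and cyclophosphamide (n = 6), and relapsed tumors at day 10 after 4 doses (n = 4). The labels call these 3 groups Control, Regressed tumor and Resistant tumor. The doses were given weeks apart, so relapsed tumors were taken later after transplant than residual tumors. Time since transplant and number of doses cannot be told apart there. The outgrowth age of the untreated tumors was not given. RNA of the progression samples was amplified in an extra round before labeling, so levels were not compared between the experiments. Every value is a log2 ratio of the sample (Cy5) to a common Universal mouse reference (Cy3), and a value of 1 means that the sample signal was 2-fold that of the reference. A difference was called at an adjusted p below 0.05 in limma and a change of at least 2-fold.

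Milk protein genes are the products of the secretory luminal cell of the mammary gland. Prolactin acts through its receptor and the kinase Jak2 on the transcription factor Stat5, and with glucocorticoid receptor, C/EBP-beta and Elf5 it turns on the caseins and the whey proteins from mid-pregnancy onwards. Caseins form the micelles that carry calcium, with kappa-casein (Csn3) on their surface. Alpha-lactalbumin (Lalba) is the regulatory subunit of lactose synthase, whey acidic protein (Wap) is the major whey protein of rodents, and butyrophilin (Btn1a1), xanthine dehydrogenase (Xdh) and Mfge8 are proteins of the milk fat globule membrane. Mfge8 is also made by macrophages, where it bridges apoptotic cells to the phagocyte.

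On mouse build mm7, the shown probes lie on chromosome 5 for Csn1s1 (87619071-87619130), Csn2 (87629506-87629565), Csn1s2a (87725465-87725524) and Csn3 (87862437-87864389), on chromosome 11 for Wap (6587487-6587510), 15 for Lalba (98465449-98466288), 13 for Btn1a1 (22829854-22829913), 17 for Xdh (72172548-72172607) and 7 for Mfge8 (74997005-74997064). All shown probes were well above background in the sample channel on all 38 arrays, except Btn1a1 on adenoma 3 and Csn1s2a on disseminated 5. The reference signal was well above background on fewer of the 22 progression arrays, 5 for Csn1s2a (0 of 6 carcinomas, 1 of 6 disseminated and 1 of 5 metastases), 9 for Csn2, 16 for Csn3, 18 for Wap and 19 for Csn1s1. On the 16 chemotherapy arrays it was so on 7 for Csn1s2a, 4 for Csn2 and 2 for Btn1a1. The size of a ratio to such a spot is uncertain. Adenomas and disseminated cells shared slides, as did carcinomas and metastases, so for the other progression comparisons slide and scan day cannot be told apart from the group. Markers of other cells differed between the progression groups. The mean log2 ratio of the 12 macrophage markers lay between -0.45 and -0.26 in adenomas, between 3.26 and 5.17 in disseminated cells and between 0.71 and 5.18 in metastases, and was 3.71 in carcinoma 6 against at most 0.07 in the other carcinomas. The 8 lung epithelium markers averaged 0.98 to 1.78 in adenomas and 2.25 to 3.86 in disseminated cells, and 1.90 to 3.27 in metastases. The 8 neutrophil markers averaged 0.85 to 1.36 in adenomas, 2.75 to 5.86 in disseminated cells, where 7 of 8 were called higher than in adenomas, and 1.26 to 3.67 in metastases. The part of these cells in the results was not tested. The 12 mammary epithelium markers averaged 2.70 to 3.28 in adenomas, 2.20 to 3.69 in carcinomas, 0.16 to 3.23 in disseminated cells and 0.51 to 4.30 in metastases. Below 1 were disseminated 3 and 5 and metastases 4, and each count was repeated without these libraries. In bulk RNA, fewer epithelial cells in a sample and less milk protein RNA in each cell cannot be told apart.

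Read by the brightest probe of each gene, all 9 genes had a lower mean in metastases and in disseminated cells than in adenomas. Every called difference was a decrease. The other probes of Btn1a1 and Xdh did not all go the same way, as given below. Of the 9 genes, 3 were called in metastases against adenomas (Lalba, Csn1s2a and Csn3), where 14.6% of all genes were called, and 4 in disseminated cells against adenomas (Lalba, Csn1s2a, Csn3 and Mfge8), against 10.5% of all genes. Carcinomas differed from adenomas in 1 gene, Lalba (3.30% of all genes), disseminated cells from carcinomas in 1 gene, Mfge8 (11.6%), and metastases from carcinomas in 1 gene, Wap (10.1%). None was called between metastases and disseminated cells in limma, where 7.12% of all genes were called and 1 member had an unadjusted p below 0.05. The median difference of the 9 genes was -2.06 in metastases and -2.59 in disseminated cells against adenomas, beside 0.01 and -0.01 over all genes. These comparisons share the adenoma arrays. By direction, 6.09% of all genes were called higher and 8.47% lower in metastases against adenomas, and 4.65% and 5.82% in disseminated cells against adenomas.

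**Figure D1:**
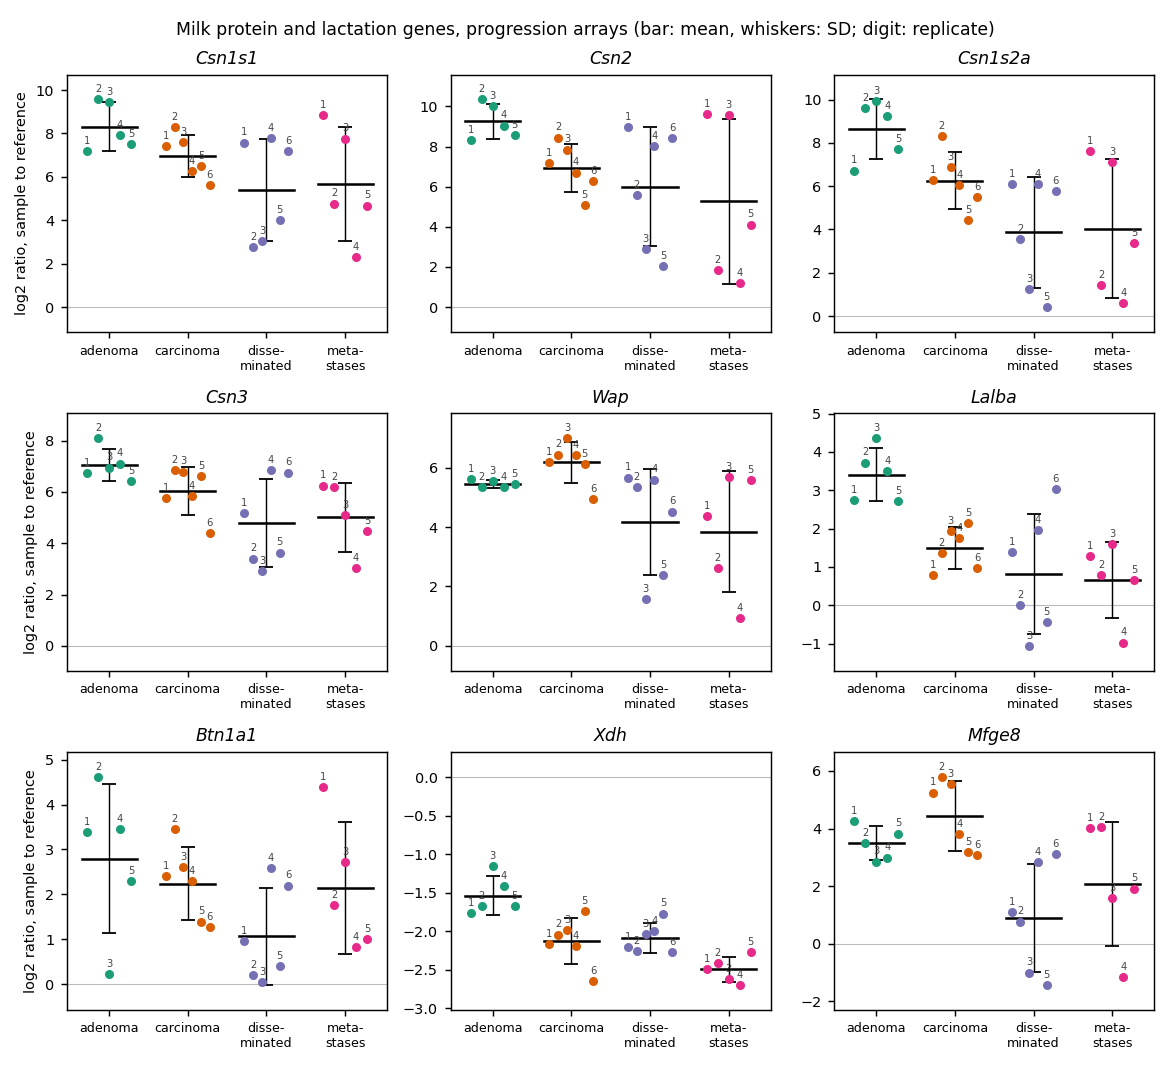
Log2 ratio of sample to reference for the 9 genes on the 22 progression arrays, each point an array with its replicate number, the bar the group mean and the whiskers 1 SD. In metastases, Csn2 spans 1.19 to 9.62, and in adenomas 8.33 to 10.35.

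Of the caseins, Csn2 encodes beta-casein, the most abundant casein of mouse milk. Its log2 ratio was 8.33, 10.35, 9.997, 9.04 and 8.59 in adenomas 1 to 5. In carcinomas it ran from 5.09 through a median of 6.93 to 8.45. The disseminated cells spread from 2.05 to 8.98 with a median of 6.80, and the metastases measured 9.62, 1.82, 9.56, 1.19 and 4.10. Metastases 1 and 3 thus lay within the adenoma range and metastases 2 and 4 far below it, 344-fold between the highest and the lowest. The mean difference of metastases from adenomas, -3.999 ± 1.57 (SE), missed the threshold (adjusted p = 0.062, limma), as did that of disseminated cells from adenomas, -3.26 ± 1.5003 (adjusted p = 0.13) and that of carcinomas, -2.34 ± 1.5003 (adjusted p = 0.33). Without metastases 1 the first became -5.09 and was called (adjusted p = 0.021), and without metastases 3 it was -5.07 (adjusted p = 0.022). These leave out the 2 highest metastases, and were the only calls among 10 fits without 1 array. Of 14 alternatives, 1 called it. Over all these refits it ran from -5.09 to -2.80, with adjusted p up to 0.18 in limma.

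Csn1s2a, an alpha-S2-casein, showed the largest called decreases of the 9 genes. Adenomas 1 to 5 measured 6.71, 9.60, 9.93, 9.23 and 7.73. Carcinomas ran from 4.44 through 6.16 to 8.33, disseminated cells from 0.42 through 4.66 to 6.11, and metastases 1 to 5 measured 7.64, 1.44, 7.10, 0.60 and 3.36. No disseminated sample reached the lowest adenoma, while metastases 1 and 3 did. The ratio was lower in metastases (-4.61 ± 1.35, adjusted p = 0.015, limma) and in disseminated cells (-4.77 ± 1.29, adjusted p = 0.014) than in adenomas. In the sample channel alone, taken after normalization of both channels and added after seeing the data, the differences were -4.19 (adjusted p = 0.023) and -4.76 (adjusted p = 0.014). Within the 3 slides that held both groups, the difference of disseminated cells from adenomas was -2.04, -5.09 and -7.83. Each slide held only 1 or 2 arrays of a group. The last value came from the slide whose disseminated arrays were 3 and 5, both libraries of low epithelial markers. That slide also gave the last within-slide value of disseminated cells against adenomas for Csn3, Lalba and Mfge8 below. Without the 3 libraries of low epithelial markers, the difference was -3.76 in metastases (adjusted p = 0.022) and -3.26 in disseminated cells, which was no longer called (adjusted p = 0.072).

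Csn1s1, the alpha-S1-casein gene, measured 7.18, 9.57, 9.44, 7.92 and 7.49 in adenomas and 8.86, 4.77, 7.76, 2.29 and 4.68 in metastases. It was between 5.64 and 8.28 in carcinomas and between 2.76 and 7.79 in disseminated cells. Metastases 1 and 3 again overlapped the adenomas, and the other 3 lay below them. Neither metastases (-2.65 ± 1.15, adjusted p = 0.092) nor disseminated cells (-2.93 ± 1.10, adjusted p = 0.066) passed the threshold against adenomas in limma.

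Csn3, kappa-casein, had a smaller range. Its log2 ratio was 6.74, 8.09, 6.95, 7.10 and 6.43 in adenomas and 6.25, 6.20, 5.10, 3.03 and 4.46 in metastases, and the 2 groups did not overlap. Carcinomas ran from 4.40 through 6.23 to 6.86, and disseminated cells from 2.92 through 4.41 to 6.85. The decrease was 4.16-fold in metastases (-2.06 ± 0.75, adjusted p = 0.047, limma) and 4.83-fold in disseminated cells (-2.27 ± 0.72, adjusted p = 0.031) against adenomas. Within slides the difference of disseminated cells was -0.95, -1.82 and -3.99. In metastases the call held in 5 of 14 alternatives and in 2 of 10 fits without 1 array, and in disseminated cells in 8 of 15 and in 5 of 11. Without normalization between arrays the differences were -0.61 (adjusted p = 0.69) and -0.92 (adjusted p = 0.53). Without the libraries of low epithelial markers it was not called either (-1.56, adjusted p = 0.094, and -1.51, adjusted p = 0.15).

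Lalba fell in metastases, disseminated cells and carcinomas. Adenomas 1 to 5 measured 2.74, 3.72, 4.35, 3.49 and 2.71, and metastases 1 to 5 measured 1.28, 0.78, 1.60, -0.97 and 0.66. Carcinomas lay between 0.79 and 2.14 with a median of 1.56, so neither metastases nor carcinomas overlapped the adenomas. Disseminated cells spread from -1.06 through 0.70 to 3.02, with disseminated 6 inside the adenoma range. Against adenomas, Lalba was 6.65-fold lower in metastases (-2.73 ± 0.63, adjusted p = 0.0031, limma), 6.01-fold lower in disseminated cells (-2.59 ± 0.60, adjusted p = 0.0060) and 3.75-fold lower in carcinomas (-1.91 ± 0.60, adjusted p = 0.045). In metastases and in disseminated cells it was called under every alternative and with each replicate left out, and within slides the difference of disseminated cells was -0.91, -3.37 and -3.96. Without the libraries of low epithelial markers it was called as well (-2.32, adjusted p = 0.0025, and -1.81, adjusted p = 0.026). The call in carcinomas was lost in 9 of the 11 fits that left out 1 array, with adjusted p up to 0.12.

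For Wap, whey acidic protein, the ratio was 5.33 to 5.63 in adenomas (SD 0.13) and 4.94 to 6.99 in carcinomas. Metastases 1 to 5 measured 4.36, 2.62, 5.68, 0.95 and 5.59, and disseminated cells ran from 1.57 through 4.94 to 5.66. The decrease in metastases against carcinomas was 5.07-fold (-2.34 ± 0.80, adjusted p = 0.042, limma). Within slides it was -3.93 on the slide that held metastases 4, and -0.80 and -2.90 on the others. Without metastases 4 it was -1.62 (adjusted p = 0.14). The call was lost in 8 of 11 fits without 1 array and held in 9 of 15 alternatives. The other Wap probe, A_51_P407704, was called in that comparison (-2.62, adjusted p = 0.023 over all probes), and also in metastases (-3.05, adjusted p = 0.0095) and disseminated cells (-2.42, adjusted p = 0.038) against adenomas, where the shown probe gave -1.62 (adjusted p = 0.16) and -1.28 (adjusted p = 0.28).

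The reference RNA was the same on all arrays, yet its signal at the Wap and Mfge8 probes was not. At Wap the Cy3 intensity ran from 62.3 on metastases 2, where Cy5 was 2294, to 2143 on adenoma 2, where Cy5 was 351643. Only 0.046% of probes had a reference signal with at least this SD over the progression arrays. At Mfge8 the order was the opposite, with a Cy3 intensity of 1280 beside a Cy5 of 189496 on carcinoma 3 and of 54090 beside a Cy5 of 82234 on disseminated 5, an SD that 0.036% of probes reached. By group, the median Cy3 intensity at Wap was 1298 in adenomas (840 to 2143), 251 in carcinomas, 143 in disseminated cells and 84.9 in metastases. No array outside the adenomas went above 358. The Wap ratios against adenomas thus rest on a reference signal that differed between the groups. The cause of these differences was not tested. The sample channel alone was a choice made after the data were seen. It was taken after both channels were normalized together, so it still depended in part on the reference signal. Read from it, Wap was lower in metastases than in adenomas by a log2 value of -5.22 (adjusted p = 0.0011, limma) and in disseminated cells than in adenomas by -4.62 (adjusted p = 0.0044). Its difference between carcinomas and adenomas, 0.72 ± 0.80 as a ratio (adjusted p = 0.60), was -1.69 there (adjusted p = 0.31).

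**Figure D2:**
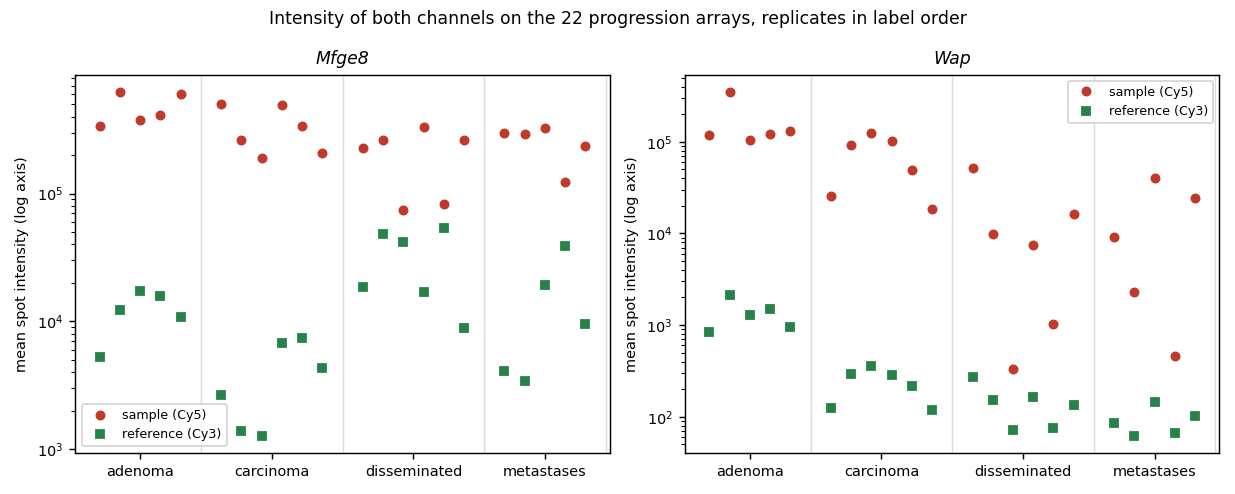
Mean spot intensity of the sample and reference channels (log axes) at the Mfge8 and Wap probes on the 22 progression arrays. The reference signal of Mfge8 lies between 1280 and 54090, and that of Wap between 62.3 and 2143.

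Of the genes of the milk fat globule membrane, Mfge8 measured 4.27, 3.50, 2.85, 2.99 and 3.82 in adenomas, and ran from 3.08 through 4.53 to 5.79 in carcinomas. Disseminated cells ran from -1.42 through 0.93 to 3.11, and metastases measured 4.01, 4.04, 1.59, -1.16 and 1.91. Its ratio was 11.7-fold lower in disseminated cells than in carcinomas (-3.54 ± 0.87, adjusted p = 0.0056, limma), with disseminated 6 as the only overlap. The reference signal differed between these groups, with a median Cy3 intensity of 30104 in disseminated cells and 3494 in carcinomas. The median Cy5 intensity was 243643 and 300514. Against adenomas the ratio was 6.02-fold lower (-2.59 ± 0.91, adjusted p = 0.050, just below the threshold, and lost in 9 of 11 fits without 1 array). Within slides the difference from adenomas was -1.53, -1.05 and -4.88. In the sample channel alone these differences were -0.88 (adjusted p = 0.12) and -1.56 (adjusted p = 0.015). Without the libraries of low epithelial markers, the ratio differed from carcinomas by -2.49 (adjusted p = 0.018) and from adenomas by -1.53 (adjusted p = 0.17).

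Xdh, which also acts as an enzyme of purine breakdown, varied little, with ratios of -1.77 to -1.16 in adenomas, -2.65 to -1.74 in carcinomas, -2.27 to -1.77 in disseminated cells and -2.70 to -2.27 in metastases. Metastases and adenomas did not overlap, and the difference of -0.96 ± 0.15 passed the adjusted p (0.00013, limma) but was just under 2-fold. This difference was called in 5 of 14 alternatives and in 2 of 10 fits without 1 array, and ran from -1.12 to -0.50. Disseminated cells (-0.55 ± 0.14, adjusted p = 0.010) and carcinomas (-0.59 ± 0.14, adjusted p = 0.011) were likewise under 2-fold. Its other probe, A_52_P249965, gave -0.05 ± 0.30 in metastases against adenomas (adjusted p = 0.93). In disseminated cells against adenomas that probe was higher, by 0.16 (adjusted p = 0.74 over all probes, limma). Btn1a1 ran from 0.23 to 4.61 in adenomas, from 1.27 to 3.45 in carcinomas, from 0.05 to 2.58 in disseminated cells and from 0.82 to 4.39 in metastases, and no difference between these groups passed the threshold. Its lowest adenoma was adenoma 3, where the spot was not well above background. Without that array, disseminated cells differed from adenomas by -2.37 (adjusted p = 0.024), against -1.73 ± 0.73 with it (adjusted p = 0.098). Its other probe, A_51_P316310, was well above background on 9 of the 22 arrays. Against adenomas that probe gave 0.17 in metastases (adjusted p = 0.68 over all probes, limma) and -0.17 in disseminated cells (adjusted p = 0.69).

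**Figure D3:**
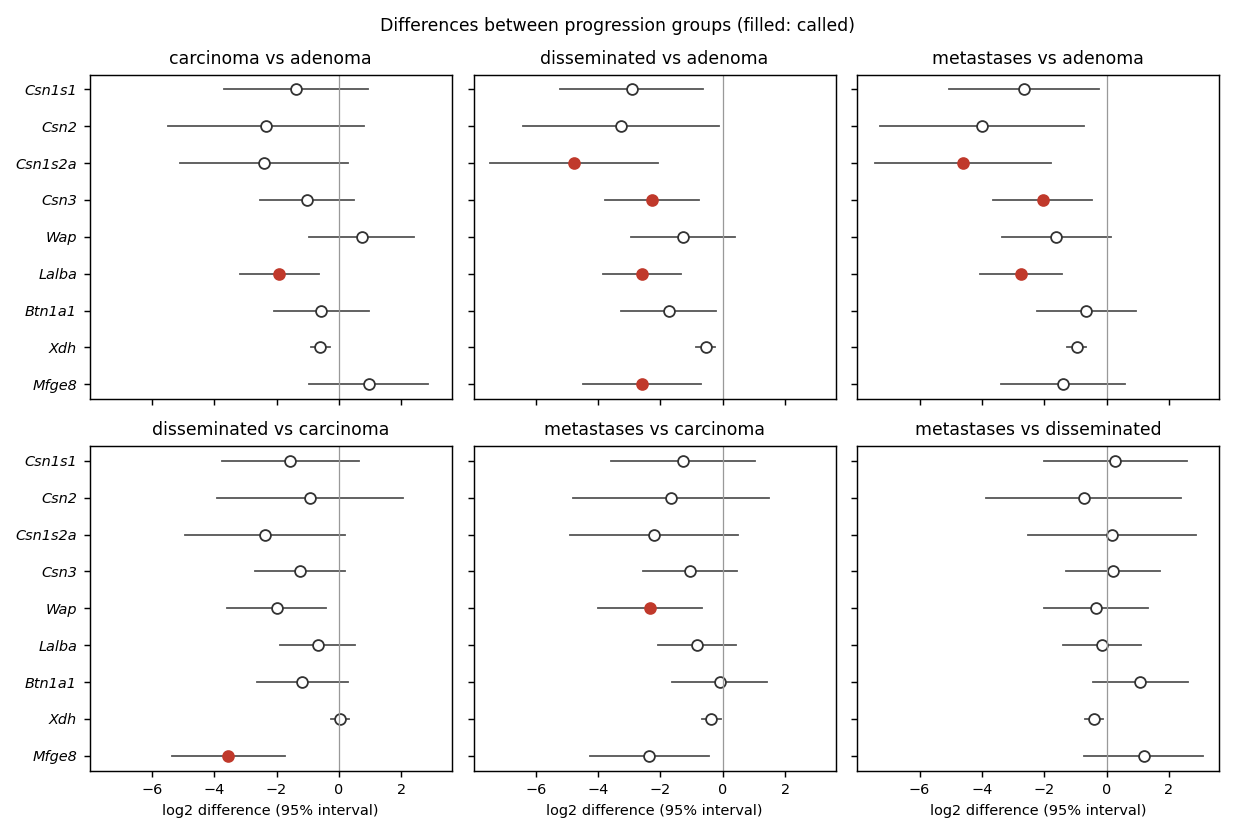
Log2 difference of each gene between progression groups with its 95% interval from limma, filled where called. Of the 10 filled points, all lie below 0, and the intervals of Csn2 are the widest.

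The caseins lie together on mouse chromosome 5, in the order Csn1s1, Csn2, Csn1s2a, Csn1s2b and, past a few other genes, Csn3. With group means removed, Csn2 and Csn1s2a followed each other over the 22 progression arrays (Pearson r = 0.98) and over the 16 chemotherapy arrays (r = 0.97), and Csn1s1 followed Csn2 (r = 0.88 and 0.85). Csn3 was less closely tied to Csn2 in progression (r = 0.60) and was not tied to it in chemotherapy (r = -0.16). Over the progression arrays Csn3 was closer to Lalba (r = 0.84), Mfge8 (r = 0.81) and Csn1s1 (r = 0.81). These are descriptions over arrays that share the reference RNA and, within a slide, the hybridization.

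Metastases 2 showed the separation of Csn3 from Csn2 and Csn1s2a within a single library. There Csn2 was 1.82 and Csn1s2a 1.44, with Csn1s1 at 4.77, the median of its group, while Csn3 was 6.20 and Mfge8 4.04, near the top of their group. The mammary epithelium markers of this library averaged 4.30, the highest of the 22 arrays, and its macrophage markers 0.71, the lowest of the metastases. Metastases 4, with Csn2 at 1.19 and Csn3 at 3.03, had an epithelial mean of 0.51 and a macrophage mean of 5.18. Disseminated 3 and 5 resembled it, with Csn2 at 2.90 and 2.05, Csn3 at 2.92 and 3.64, epithelial means of 0.16 and 0.59 and macrophage means of 3.98 and 4.79. The part of these markers in the casein levels was not tested.

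**Figure D4:**
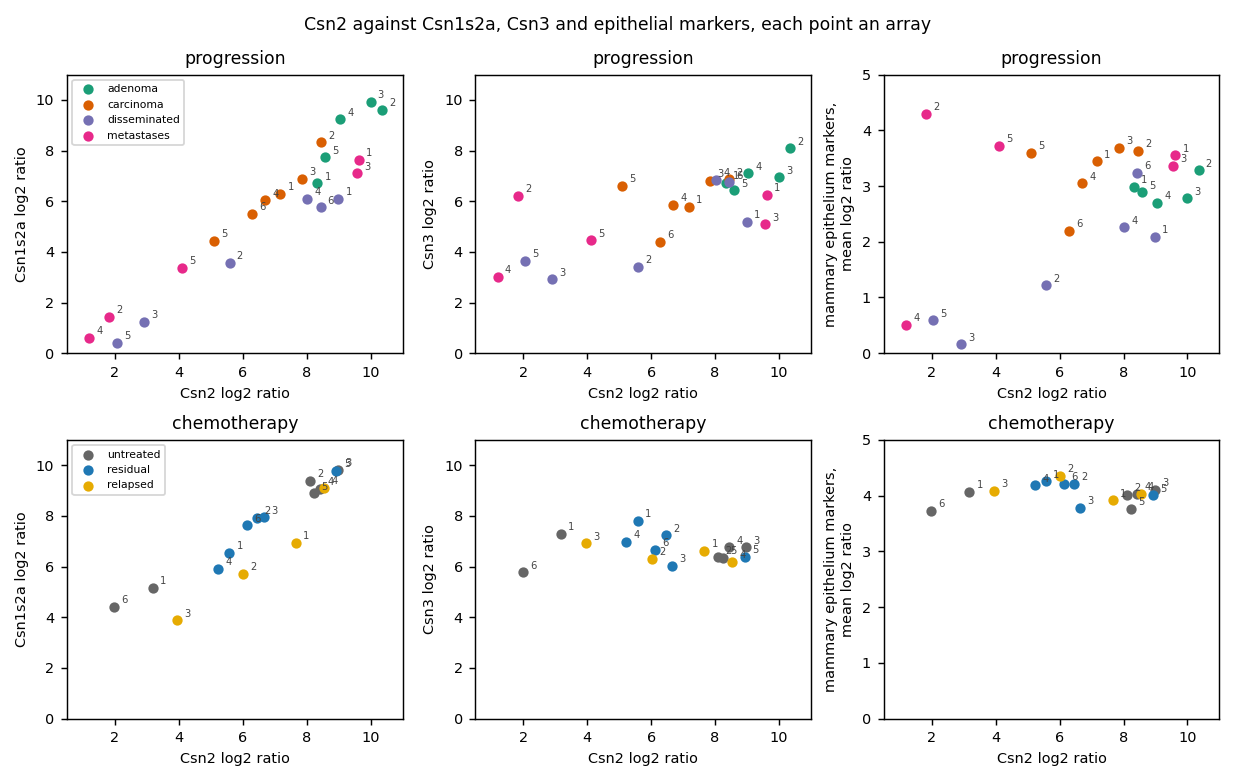
Csn2 log2 ratio against the log2 ratios of Csn1s2a and Csn3 and against the mean of 12 mammary epithelium markers, each point an array with its replicate number, progression above and chemotherapy below. Csn1s2a rises with Csn2 in both experiments, and metastases 2 combines a Csn2 ratio of 1.82 with an epithelial mean of 4.30.

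The proximal promoters of Csn1s1 and Csn2, which moved together, are shown, with that of Wap beside them. That of Csn1s2a, the casein that followed Csn2 most closely, is not printed but is described below. The 250 bases before the gene start are from RefSeq on GRCm38.p6, 5′ to 3′ on the gene's strand, in lower case, with matches to TTCNNNGAA, the palindromic core bound by Stat factors, in capitals.
Csn1s1, chr5:87665958-87666207, plus strand: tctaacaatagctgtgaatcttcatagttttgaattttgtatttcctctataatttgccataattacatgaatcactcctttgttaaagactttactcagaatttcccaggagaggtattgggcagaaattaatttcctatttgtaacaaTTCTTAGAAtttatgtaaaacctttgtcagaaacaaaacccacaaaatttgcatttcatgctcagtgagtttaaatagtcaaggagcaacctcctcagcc
Csn2, chr5:87699426-87699675, minus strand: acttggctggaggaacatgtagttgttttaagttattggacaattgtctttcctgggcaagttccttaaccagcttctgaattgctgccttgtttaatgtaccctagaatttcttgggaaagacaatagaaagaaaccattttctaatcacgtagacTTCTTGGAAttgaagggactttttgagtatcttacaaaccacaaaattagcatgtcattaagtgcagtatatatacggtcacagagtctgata
Wap, chr11:6638650-6638899, minus strand: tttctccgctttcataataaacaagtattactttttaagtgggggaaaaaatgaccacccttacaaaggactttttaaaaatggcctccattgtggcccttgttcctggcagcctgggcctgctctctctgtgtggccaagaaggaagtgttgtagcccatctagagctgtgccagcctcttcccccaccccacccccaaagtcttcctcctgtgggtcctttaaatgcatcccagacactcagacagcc

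The match stands at bases 100 to 92 before the start of Csn1s1 and at bases 93 to 85 before that of Csn2, and the Wap window holds none. The motif reads the same on both strands, so 1 search covers both. Of the 6 members with a promoter in the table, those 2 hold it, and 7.02% of all 32851 promoters do in the same window. Csn1s2a has no match upstream, but has one at bases 21 to 29 after its start. Lalba and Mfge8 have none in their windows, and Csn3, Btn1a1 and Xdh have no entry. A match of letters is a description and not evidence of binding.

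In the chemotherapy experiment no member was called in any of the 3 comparisons in limma, among 0.094% of all genes called in residual against untreated tumors, 0.010% in relapsed against untreated and 0.212% in relapsed against residual tumors. At an unadjusted p below 0.05, Btn1a1 alone stood out, in the first and the second of these. Mammary epithelium markers averaged 3.73 to 4.36 on all 16 arrays and macrophage markers at most 1.45.

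The reference signal varied here too, from 57.3 to 285 for Csn1s1, an SD reached by 0.126% of probes, and from 136 to 637 for Lalba (1.09%), with 0.255% for Csn1s2a, 0.087% for Wap and 0.257% for Mfge8. The alpha- and beta-caseins varied widely among untreated tumors. Csn2 measured 3.18, 8.10, 8.97, 8.43, 8.24 and 1.98 in untreated tumors 1 to 6, so that 4 tumors lay close together and tumors 1 and 6 far below, a 127-fold range. Its SD of 3.06 was reached by 0.003% of genes among untreated tumors, which is Csn2 alone. In residual tumors Csn2 ran from 5.23 through 6.29 to 8.93, and in relapsed tumors it measured 7.66, 6.02, 3.95 and 8.54. The 95% interval of the mean difference from untreated tumors was -2.52 to 2.54 in residual tumors and -2.77 to 2.88 in relapsed tumors. Spread of this size leaves even 4-fold differences within the interval.

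Csn1s2a was low in the same libraries, at 5.16 and 4.41 in untreated 1 and 6 against 8.89 to 9.81 in the other 4, and at 3.88 in relapsed 3. Csn1s1 was 6.27 and 5.53 in those untreated tumors and 7.17 to 8.09 in the others. Csn3 was 7.30 in untreated 1, the highest of its group, and 5.78 in untreated 6, the lowest. The epithelial markers of untreated 1 and 6 averaged 4.07 and 3.73 and those of relapsed 3 averaged 4.08. Untreated 6 was thus the lowest of the 16 arrays, and the other 2 lay within the range of the rest.

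Lalba stayed between 3.99 and 5.92 on the 16 arrays. Wap was 2.46 in untreated 1 and 5.61 to 6.66 in the other untreated tumors, 5.67 to 6.86 in residual and 4.91 to 6.36 in relapsed tumors, and the difference of residual from untreated tumors was 0.87 ± 0.52 (adjusted p = 0.66, limma). Mfge8 ran from 2.60 to 5.47 and Xdh from 0.17 to 1.12. Btn1a1 measured 1.49, 3.53, 4.07, 2.85, 2.67 and 2.14 in untreated tumors and 1.71, 0.86, 1.04 and 1.49 in relapsed tumors, with residual tumors between 1.41 and 3.02. Its difference of relapsed from untreated tumors was -1.52 ± 0.41 (adjusted p = 0.32), with an overlap at untreated 1.

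**Figure D5:**
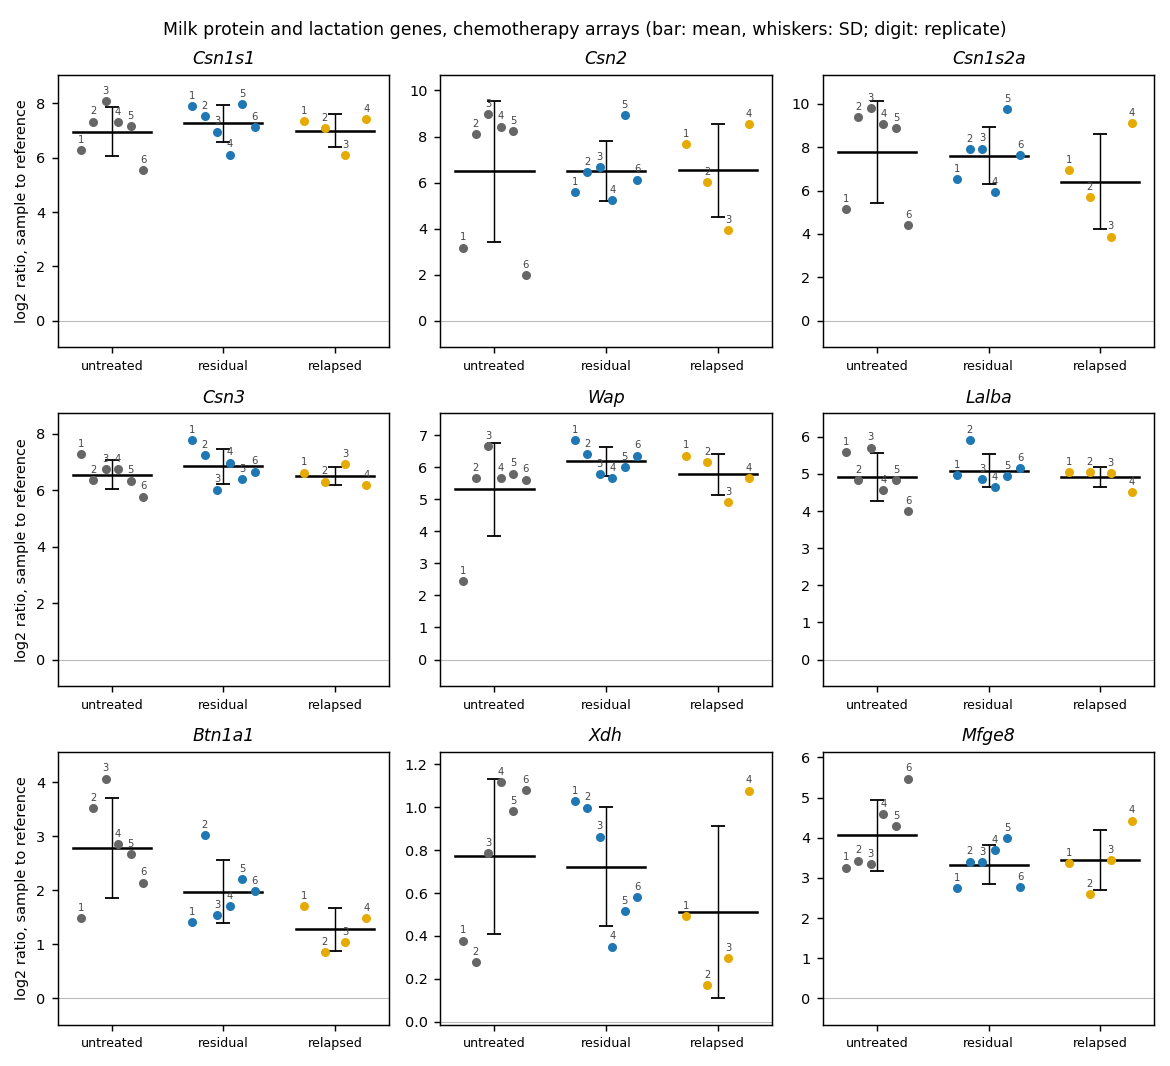
Log2 ratio of sample to reference for the 9 genes on the 16 chemotherapy arrays, each point an array with its replicate number, the bar the group mean and the whiskers 1 SD. Untreated 1 and 6 are the lowest untreated tumors for Csn1s1, Csn2 and Csn1s2a.

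Further genes of lactation were counted from lists of general knowledge. Of 15 other whey and secreted milk proteins, 1 was called higher and 2 lower in metastases against adenomas, and 0 and 4 in disseminated cells against adenomas. Beside the shares over all genes, 6.09% higher and 8.47% lower in metastases and 4.65% and 5.82% in disseminated cells, the counts in metastases are near the background, here and for the milk fat and lactose lists that follow. Glycam1, a mucin of whey, was lower in metastases (-3.29), disseminated cells (-3.21) and carcinomas (-3.54) than in adenomas, with adjusted p of 0.017 to 0.021 in limma, and was well above background on 5 of 5 adenoma and 2 of 5 metastasis arrays. Lao1, a milk amino acid oxidase, was lower in disseminated cells than in adenomas (-3.50, adjusted p = 0.0071, limma). The rise in metastases against adenomas was that of Pthlh (1.09, adjusted p = 0.024, limma).

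Of 21 milk fat genes, 2 rose and 3 fell in metastases against adenomas, and 2 and 3 in disseminated cells. Thrsp, a regulator of lipogenesis, fell by 2.49 in metastases (adjusted p = 0.0053, limma) and by 2.93 in disseminated cells (adjusted p = 0.0027). Srebf1, the transcription factor of fatty acid synthesis, fell by 1.87 (adjusted p = 0.027) and by 1.68 (adjusted p = 0.048). The fatty acid transporter Cd36, which macrophages and endothelium also make, rose by 3.23 and 5.18. The other rises were that of Acly, which makes cytosolic acetyl-CoA, in metastases (1.76, adjusted p = 0.0010, limma) and of the lipase Lpl in disseminated cells (2.98, adjusted p = 0.0012).

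Of 17 genes of lactose synthesis and transport, 1 rose and 2 fell in metastases against adenomas, and 0 and 2 in disseminated cells, where the zinc transporter Slc30a2 fell by 2.77 (adjusted p = 0.015, limma). Of 24 genes of hormone and Stat5 signaling, 3 rose and 4 fell in metastases and 5 rose and 3 fell in disseminated cells. The alveolar transcription factor Elf5 fell by 2.52 in metastases (adjusted p = 0.012) and by 2.36 in disseminated cells (adjusted p = 0.019), and Nfib by 1.67 and 1.73. The largest rise in metastases was that of Tnfrsf11a (2.26, adjusted p = 0.0032, limma). Among the other rises were Socs3, a feedback inhibitor of cytokine signaling, by 2.21 in metastases and 2.10 in disseminated cells, and the helix-loop-helix factor Id2, by 2.16 in disseminated cells. The prolactin receptor Prlr, named here although its values had been seen, differed by -0.61 in both (adjusted p = 0.00031 and 0.00073), under 2-fold, and Stat5a by -0.62 (adjusted p = 0.17) and 0.03 (adjusted p = 0.96). The median difference in metastases against adenomas was -0.52, -0.09, -0.13 and -0.15 for these 4 lists in the order given, beside 0.01 over all genes. No gene of the 4 lists was called in the chemotherapy comparisons.

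The genes whose pattern was most like the mean of the 4 caseins were ranked among those well above background on a share of at least 0.5 of the arrays. The ranking kept the group means, unlike the r values between caseins above. Over the 22 progression arrays the top of 21206 ranked genes were AK145002 (Pearson r = 0.89), 1700025G04Rik (r = 0.88), Duoxa1 (r = 0.87), Tmc5 (r = 0.87) and Duox1 (r = 0.86). With group means removed, their r was 0.83, 0.83, 0.84, 0.88 and 0.82 in that order. Over the 16 chemotherapy arrays the top of 16388 were Grrp1 (r = 0.85), Sycn (r = 0.82), C230094B09Rik (r = 0.76), Glycam1 (r = 0.74) and P2rx3 (r = 0.72), so the 2 sets shared no gene. With group means removed, their r was 0.86, 0.82, 0.80, 0.75 and 0.73.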

How the data were processed

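RNA of sorted cells was hybridised to 2-colour Agilent arrays, sample in Cy5 and a universal reference in Cy3, with no dye swap. Per the file headers, the authors deposited scanner intensity values from Agilent Feature Extraction 10.7, and a table of log2 ratios, which correlated with the scanner ratios of each array and was used only as an alternative. Spot intensities were background-corrected here by normexp (offset 50), loess-normalised within arrays without control spots and outlier flags, and quantile-normalised between the arrays of each experiment. Spots of a probe were averaged, the brightest probe stood for a gene, and all groups of an experiment entered 1 limma fit (limma 3.58.1, R 4.3.3) with Benjamini-Hochberg adjustment over 28785 genes. Calls needed an adjusted p below 0.05 and a log2 difference of at least 1. On simulated data for metastases against adenomas (28387 genes), 85% of changes of log2 size 2 and 99% of size 4 were recovered. The changed genes were drawn at random from all genes. Csn2 had an SD of 4.10 in metastases, beside a median of 0.22 over all genes. These shares therefore do not hold for genes of such spread, and say nothing of their uncalled differences. The number of arrays limits the precision. The labels do not say for every group that samples came from separate mice, so p-values measure the spread between these samples. The 9 genes and the other lists were chosen with earlier results of these data known. From the other lists, the text names at most a few called genes per comparison with the largest differences, and every one of the 9 genes. Alternatives covered background, normalization, filters, probes, slide, replicate number, samples in the fit and test, and each array left out.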

Additional observations from a re-analysis of the deposited data

Results flagged for a closer look

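Of 63 combinations of gene and group tested for a single distant array, 2 stood apart. Chance gives about 1 in 20, so this number is no more than chance alone would give. Wap was 2.4575 in untreated 1, lower than the next untreated tumor by 3.16 on the log2 scale. Lalba was 4.5034 in relapsed 4, lower than the next relapsed tumor by 0.51, with the other 3 relapsed tumors between 5.02 and 5.06.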

How the results depend on the processing

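The 10 called differences kept their direction in all 253 refits and stayed called in 167. The number of the 9 genes called moved as follows. Against the 3 called in metastases against adenomas, 7 were called with offset 0 and 5 in the sample channel alone. With the scanner's processed signals and with the mean of all probes of a gene, 4 were called. It was 2 without normalization between arrays, with the deposited ratios, with a random slide block and with a replicate block. The unmoderated test and the fit without the libraries of low epithelial markers also gave 2. Against the 1 in metastases against carcinomas, 2 were called with the scanner's processed signals, and 0 with Aquantile, without normalization between arrays, with the deposited ratios, with a replicate block, with only the compared groups in the fit and with the unmoderated test. Against the 1 in disseminated cells against carcinomas, 2 were called with offset 0, 5 with processed signals and 2 without dim probes. Against the 4 in disseminated cells against adenomas, 5 were called with offset 0 and with median centring. It was 3 with processed signals, deposited ratios, the mean of all probes, a fixed slide block and the unmoderated test. Aquantile, no normalization between arrays, a replicate block and only the compared groups gave 2. Without the libraries of low epithelial markers 1 was called. Against the 1 in carcinomas against adenomas, 3 were called with only the compared groups, and 0 with offset 0, processed signals, median centring, Aquantile, no normalization between arrays, deposited ratios, a random slide block, a replicate block, the unmoderated test and the sample channel alone. Leaving out 1 array gave 2 to 5 calls for metastases against adenomas (5 without metastases 1), 0 to 2 against carcinomas (0 without metastases 4 or any of carcinomas 1 to 5, and 2 without carcinoma 6), 1 to 2 for disseminated cells against carcinomas (2 without disseminated 1, 2 or 4 or carcinoma 6), 2 to 5 against adenomas (2 without disseminated 2, 3 or 5 or adenoma 2 or 4) and 0 to 1 for carcinomas against adenomas (1 without adenoma 1 or 5). The sample channel and the low epithelial markers were chosen after seeing the data. Direction turned for some differences that were not called. Wap in carcinomas against adenomas was -0.15 with offset 0, -0.63 with median centring, -0.56 with Aquantile and -1.69 in the sample channel, where Mfge8 was -0.68. Csn1s2a in the same comparison was 0.17 with processed signals, and Btn1a1 in metastases against adenomas was 0.23 with Aquantile and without normalization between arrays. Differences near 0 that are not printed singly turned as well: the number of the 9 genes that were lower went from 4 to between 1 (without metastases 4) and 7 (without disseminated 3) in metastases against disseminated cells, and from 4 to 1 with a fixed slide block in residual against untreated tumors. The causes were not tested. Same-numbered samples did not deviate together consistently. The Pearson r of their deviations from the group means, over all genes, ran from -0.41 to 0.42, with both signs in every comparison. The replicate numbers were therefore not read as pairs. A fixed slide block could be fitted only for metastases against carcinomas (1 call), disseminated cells against adenomas (3 calls) and the chemotherapy comparisons (0 calls).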
